A study of Mus musculus and Miniopterus natalensis with 16 samples.

Results

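A feature of a mouse oligonucleotide array, read as the probe for *Hoxd11*, was followed through the forelimb (FL) and hindlimb (HL) autopods of the Natal long-fingered bat, *Miniopterus natalensis*. The feature is 1 of 12656 distinct features with values and has a value on all 16 arrays. The table of ratios carries feature numbers and no gene names. A supplementary list of the study names folds in 3 comparisons for 35 probes, among them a probe for *Hoxd11*, M200002041. Of all rows, only feature 812's mean folds lay within 0.05 of that probe's in all 3, and it is called the *Hoxd11* feature here. Its folds were 1.79 for FL over HL at Carollia stage 16 (CS16), 2.33 for FL over HL at CS17 and 1.74 for the CS17 FL over the mouse FL pool. The closest other feature, 2389, had folds of 1.10, 1.72 and 1.60 and missed by up to 0.70. Read with the sign as deposited, 0 features matched the probe. These 3 folds chose the feature, so its limb differences and its CS17 levels are a description, and the only level tested is that of CS16 over the pool. The name rests on this match alone. A separate primer list gives the same probe number beside a *Meis2* assay, although the main text gives *Meis2* other probes.

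*Hoxd11* encodes a homeodomain transcription factor of the HoxD cluster, whose genes lie in a row and are switched on in the order in which they lie. In mouse limbs the genes at the end of the cluster that holds *Hoxd11* are used in an early phase, when the forearm and lower leg are laid down, and again in a late phase in the hand and foot plates, where the digits form. *Hoxd11* and its paralogue *Hoxa11* act together in forming the radius and ulna in the mouse. In mouse hand plates the late domain of *Hoxd11* covers the posterior digits and leaves out the thumb.

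The samples hold hand and foot plates alone, without upper or lower limb segments or the wing membranes outside the hand (proto- and plagiopatagium). The tissue between the digits, which in the FL forms the wing membrane of the hand, was part of them. The 8 embryos came from wild-caught, untreated females, 4 at CS16 and 4 at CS17, and each gave an FL and an HL sample in which left and right were pooled. Sample lists give 1 embryo for each stage and replicate number. Each array held 1 bat sample labelled with Cy3 and, labelled with Cy5, a pool of mouse FL autopods of the ICR strain at E13.5, 24 by the labels. Samples with the same replicate number were amplified and labelled as a batch, with their own amplification of the pool. Values are log2 ratios of bat over mouse, so that 1 is a 2-fold higher signal in the bat. The deposited sign was turned, since 33 of the 35 listed probes then had a matching feature, against 4 without turning. This direction is likely and not settled, because the sample labels word the deposited ratio as bat relative to mouse. By that wording higher and lower would change places throughout, and the feature would no longer match the *Hoxd11* probe. Array medians after turning lay between -0.17 and -0.04, centring is not stated, and arrays correlated pairwise at 0.84 to 0.96 across features. Tissue was bulk, so fewer cells with the transcript and less transcript per cell cannot be told apart. With bat RNA always in Cy3 on mouse probes, a species difference in level cannot be told apart from one of dye or of probe match in a ratio to the pool.

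The *Hoxd11* feature was above the mouse FL pool in all 8 bat FL samples and below it in all 8 bat HL samples. In the CS17 FL the log2 ratios of replicates 1 to 4 were 0.37, 1.02, 0.78 and 1.02, a mean of 0.80 ± 0.31 (SD, n = 4). In the CS16 FL they were 0.59, 0.22, 0.96 and 0.44, a mean of 0.55 ± 0.31 (SD, n = 4). The ranges of the FL groups overlapped, and the difference of their means was smaller than either SD. In the CS16 HL the ratios were -0.21, -0.21, -0.64 and -0.07, a mean of -0.28 ± 0.25 (SD, n = 4). In the CS17 HL they were -0.07, -0.44, -0.34 and -0.85, a mean of -0.42 ± 0.33 (SD, n = 4). Without replicate 3 the CS16 HL mean was -0.16, and without replicate 4 the CS17 HL mean was -0.28. The HL groups overlapped too, so the order from high to low was CS17 FL, CS16 FL, CS16 HL and CS17 HL, with only the middle step larger than the spread of its neighbours. As folds, the signal of the CS17 FL was 1.74 times and that of the CS16 FL 1.47 times that of the pool, and the HL signals were 0.82 times at CS16 and 0.75 times at CS17. With each array centred on its median, 1 HL ratio lay just above 0, while the HL means stayed negative at -0.18 and -0.32.

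**Figure D1:**
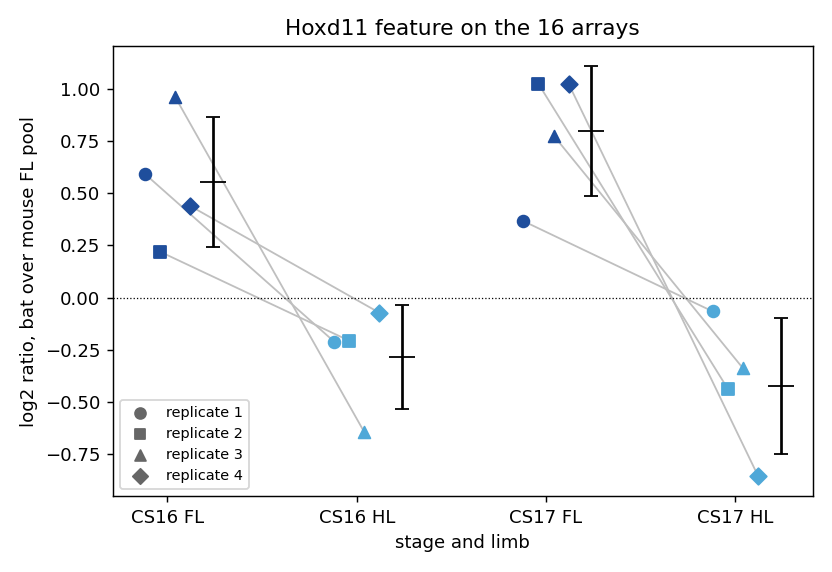
Log2 ratio of bat over mouse FL pool (vertical axis) of the Hoxd11 feature in each stage and limb. Symbols are the 4 replicates of a group, grey lines join the FL and HL of an embryo, and black bars give the mean and SD; every FL symbol lies at 0.22 or above and every HL symbol at -0.07 or below.

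The lowest FL ratio, 0.22 in CS16 replicate 2, lay 0.29 above the highest HL ratio, -0.07 in CS17 replicate 1. Such a separation of all 8 FL from all 8 HL ratios with the FL above was seen at 12 of 12656 features (0.0948%). Because the limb contrast chose the feature, nothing is read from that count. Among the 12, the gap of the *Hoxd11* feature was the widest as deposited, ahead of 0.25 for feature 24123, the match of the 5′ *Meis2* probe. The separation also held with arrays centred on their median (gap 0.32) and after quantile normalization (gap 0.32). The place of the feature on an array does not depend on such scaling. In the FL it stood between the 68.9th and 90.6th percentile of all features of its array, and in the HL between the 11.5th and 50.1st.

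Within embryos the FL exceeded the HL in 8 of 8. Replicates 1 to 4 of CS16 differed by 0.80, 0.43, 1.61 and 0.51, a mean of 0.84 ± 0.54 (SD, n = 4). Those of CS17 differed by 0.43, 1.46, 1.11 and 1.88, a mean of 1.22 ± 0.61 (SD, n = 4). Single embryos thus ranged from 1.34-fold to 3.04-fold at CS16 and from 1.35-fold to 3.67-fold at CS17, and the stages overlapped. Each group of 4 FL ratios lay above its 4 HL ratios at 3.48% of features at CS16 and 4.35% at CS17, and the FL was higher in all 8 embryos at 0.853%. The limb difference ranked 3 of 12656 at CS16 and 2 at CS17 when features were ordered from highest in the FL, against a median size of 0.09 over all features at CS16 and 0.11 at CS17. The mean limb difference was 0.38 larger at CS17 (SD of the 4 batch values 0.95). It was larger in replicates 2 and 4 and smaller in replicates 1 and 3. Leaving out each replicate in turn gave mean limb differences of 0.58 to 0.97 at CS16 and 1.00 to 1.48 at CS17.

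**Figure D2:**
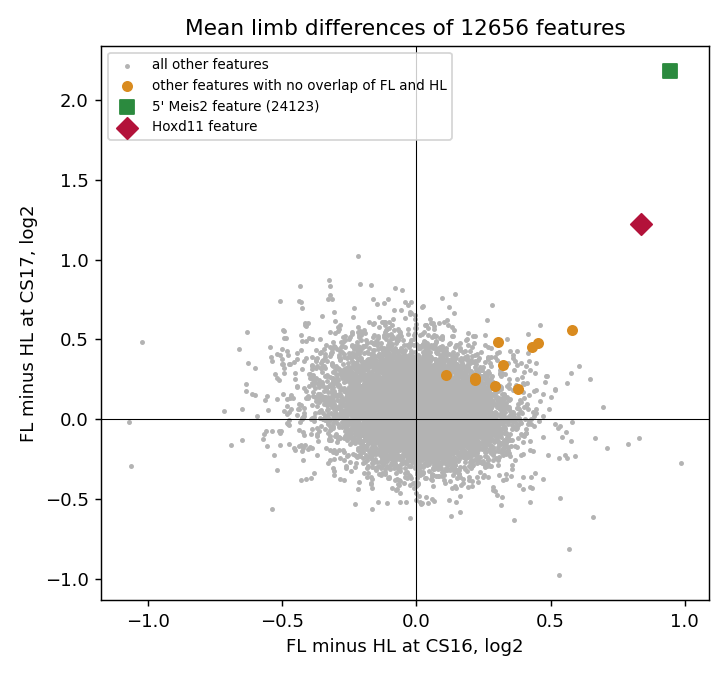
Mean FL minus HL difference on the log2 scale at CS16 (horizontal axis) and CS17 (vertical axis) for 12656 features, each a point averaged over 4 embryos a stage. The Hoxd11 feature (red) sits at 0.84 and 1.22 and the 5′ Meis2 feature (green) at 0.95 and 2.18; orange points are the 10 other features whose FL and HL ratios do not overlap.

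The spread of the *Hoxd11* feature among embryos, which the choice of the feature did not use, lay in the difference between the limbs and not in their mean. Within stages the SD of FL minus HL was 0.58, higher than at 97.7% of features and against a median of 0.25 over all features. The SD of the embryo means, averaged over FL and HL, was 0.09, the same as the median of 0.09. The ratio of these SDs was 6.52 for the *Hoxd11* feature and 2.64 at the median feature. The middle 95% of features lay between 1.14 and 6.99, which includes the *Hoxd11* feature. An embryo with a high FL ratio for its stage had a low HL ratio. The deviations of FL and HL from their group means had opposite signs in 7 of 8 embryos, against a median of 5 over features, and they correlated at -0.83 over the 8 embryos. The clearest cases were CS17 replicate 1 (-0.43 in the FL, 0.36 in the HL), CS17 replicate 4 (0.23 and -0.43) and CS16 replicate 3 (0.41 and -0.36). The exception was CS16 replicate 1, with 0.04 and 0.07. The median correlation over all features was also negative, -0.30, and the middle 95% of features lay between -0.88 and 0.55. The 4 ratios of a labelling batch averaged 0.13 to 0.19 in every batch for this feature. The SD of these batch means was 0.024, against a median of 0.028 over all features. The methods name a correction for batch, and with batch means held nearly equal a high sample goes with lower ones elsewhere in its batch. How much of the opposite movement comes from that was not tested.

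**Figure D3:**
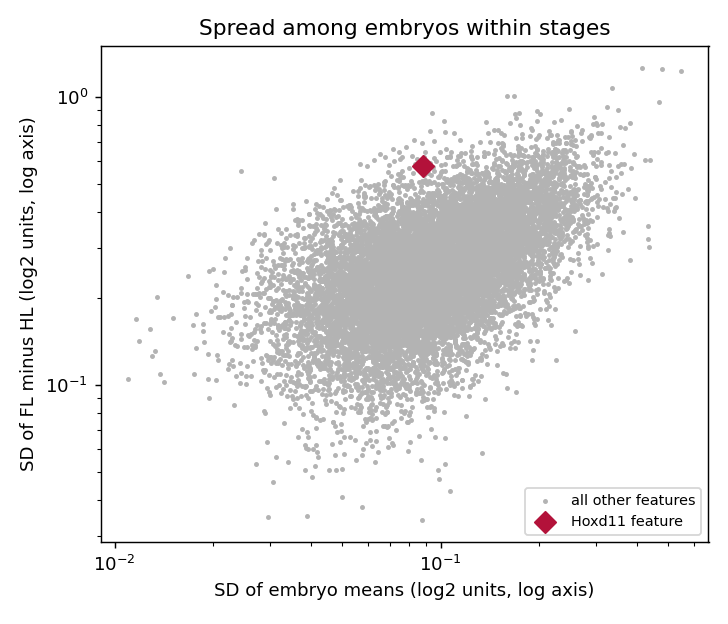
SD within stages of the embryo means of FL and HL (horizontal axis) and of the FL minus HL differences (vertical axis), both in log2 units on log axes, for 12656 features over 8 embryos. The Hoxd11 feature (red) sits at 0.09 and 0.58, near the middle across and near the top upward.

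The step from CS16 to CS17 over both limbs together is a description, because the folds that chose the feature fix its CS17 mean and leave only the CS16 level free. Averaged over FL and HL of an embryo, the *Hoxd11* feature had 0.19, 0.0064, 0.16 and 0.18 in replicates 1 to 4 of CS16 and 0.15, 0.29, 0.22 and 0.08 in those of CS17. The ranges overlapped. The CS17 mean exceeded the CS16 mean by 0.05, with a standard error of 0.09 from limma (n = 4 embryos a stage). It was higher at CS17 in 2 of 4 batches, and without replicate 2 the difference was -0.026. In the same fit, over all features, 11 of 12656 features (0.0869%) changed with an adjusted p under 0.05, 5 higher (0.0395%) and 6 lower (0.0474%) at CS17. That count was 779 with no replicate block, 636 without replicate 3 and 0 without replicate 4, where 887 features had an unadjusted p under 0.05 by limma.

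The near-constant mean covered unlike movements in the limbs. From CS16 to CS17 the FL ratios moved by -0.23, 0.80, -0.19 and 0.58 in batches 1 to 4, a mean of 0.24 ± 0.53 (SD, n = 4). The HL ratios moved by 0.14, -0.23, 0.31 and -0.78, a mean of -0.14 ± 0.48 (SD, n = 4). In all 4 batches FL and HL moved in opposite directions, which was not counted over other features. The count draws on the same deviations as the opposite signs above, in batches with nearly equal means, and is no separate result. Batches 2 and 4 were higher at CS17 in the FL and lower in the HL, and batches 1 and 3 did the reverse, so neither limb had a direction common to its 4 batches. CS16 and CS17 samples of a batch are different embryos.

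**Figure D4:**
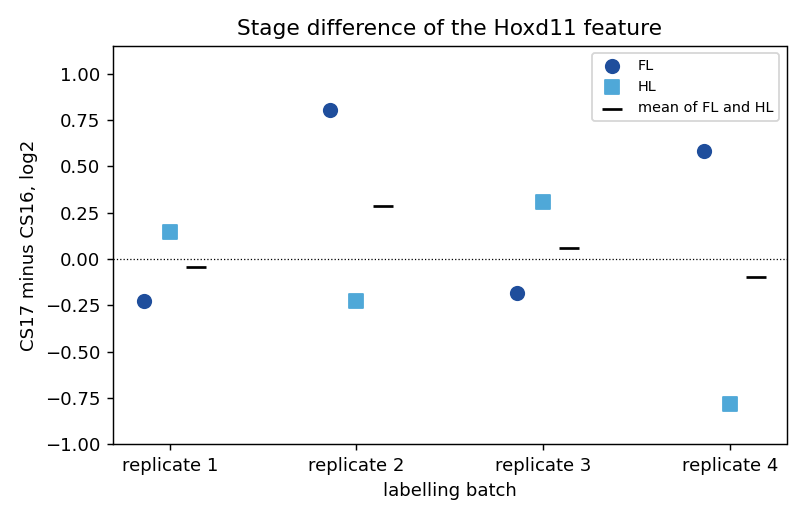
CS17 minus CS16 difference on the log2 scale (vertical axis) of the Hoxd11 feature in the 4 labelling batches. Circles are the FL, squares the HL and dashes the mean of both; the FL and HL lie on opposite sides of 0 in each batch, and the means stay between -0.10 and 0.29.

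At CS16 the mean of FL and HL lay 0.13 above the mouse FL pool, with a 95% interval of -0.01 to 0.28, a standard error of 0.06 and an adjusted p of 0.0757 by limma. It was above the pool in 4 of 4 embryos and missed the threshold. The exact sign-flip test gave p = 0.125, two-sided, the smallest that 4 embryos allow. This contrast was called at 81.1% of features, 35.2% higher and 45.9% lower in the bat, and the *Hoxd11* feature was not among them. Its size, a fold of 1.10, lay below the median size of 0.44 on the log2 scale over all features. The call turned on the setting: limma gave an adjusted p of 0.00717 for 0.22 with arrays centred on their median, of 0.0144 with no replicate block and of 0.0495 for 0.18 without replicate 2. The methods name a correction for batch, so the batch term of the main fit may correct for batch a second time. The standard error was 0.06 with that term and 0.04 with no replicate block, and which suits these values was not tested. Neither standard error holds any spread of the pool, a single RNA sample.

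Likeness to the *Hoxd11* feature was measured as Pearson's r of the log2 ratios over the 16 arrays, which share limb, stage, embryo and the mouse pool, and it is given as a description. The 5 most alike of 12655 features were 806 (r = 0.91), 33683 (0.88), 19273 (0.86), 29533 (0.86) and 11794 (0.85), none of which carries a gene name here. The median r was 0.16, and 28 features exceeded 0.8. Feature 806, only 6 rows from the *Hoxd11* feature in the table, had the FL above the HL in each of the 8 embryos, by a mean of 0.11 at CS16 and 0.32 at CS17. Its whole range was narrow, with an SD over the arrays of 0.13 against 0.60 for the *Hoxd11* feature. Other features within 20 rows of the *Hoxd11* feature were less alike to it than feature 806, with r between -0.48 and 0.61. The median was 0.30 over all 22 features of that window, against 0.16 over all features. Ordered by Spearman's rho, features 33683 (0.93) and 806 (0.90) changed places at the top. Another list of 5 came from the deviations from group means, which hold no limb or stage difference. It held features 4922, 8151, 3307, 18871 and 30653, with r of 0.91 to 0.93, and shared 0 features with the first list. Feature 4922 had limb differences of 0.23 and 0.19, and feature 3307 of -0.04 and 0.01.

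**Figure D5:**
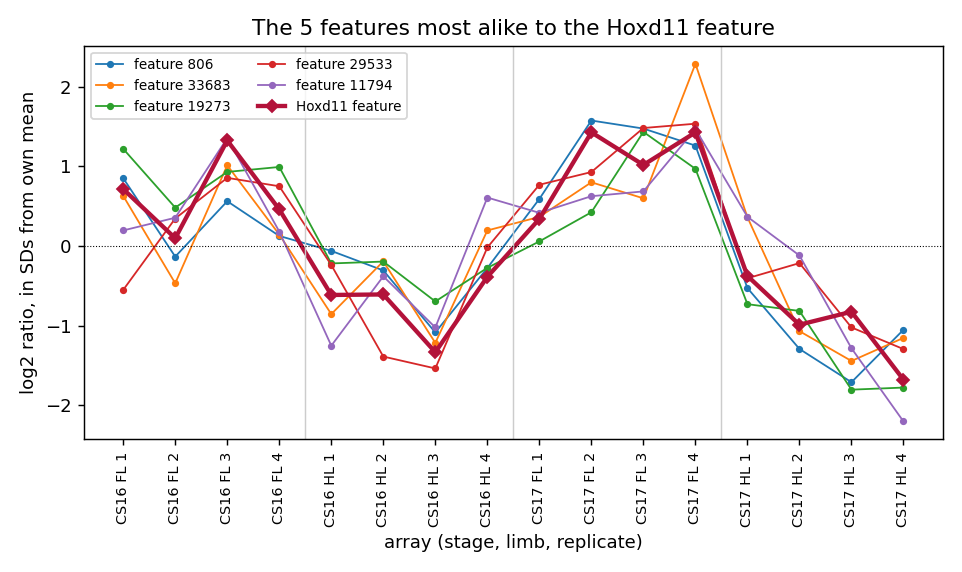
Log2 ratios of the Hoxd11 feature (red diamonds) and of the 5 features with the highest Pearson's r to it, each in SDs from its own mean (vertical axis), on the 16 arrays (horizontal axis); the lines only guide the eye. All 6 run mostly high in the FL arrays and low in the HL arrays, and the means of all 6 differ more between limbs at CS17.

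Of the genes with matched folds, 4 others act in limb patterning or cartilage and were set beside *Hoxd11*. The list was drawn from probes that the study picked on these samples, and CS17 folds matched them to features. Their stage values are therefore no independent evidence and are given as a description, with standard errors and without tests. The 5′ *Meis2* feature, for a homeobox gene otherwise known from the proximal limb bud, had r = 0.84 with the *Hoxd11* feature, the 9th highest, but only 0.24 for the deviations. Folds higher in the FL at both stages had matched both features, so that r and its rank are no independent evidence. The mean stage differences of the *Meis2* feature were 1.21 in the FL and -0.03 in the HL, against 0.24 and -0.14 for the *Hoxd11* feature. Over both limbs the CS17 mean of the *Meis2* feature exceeded its CS16 mean by 0.59 (standard error 0.14 from limma). *Lnp* lies beside the HoxD cluster in the mouse and shares its limb regulation. Its matched feature, 28963, for which another feature missed only narrowly, followed the *Hoxd11* feature little (r = 0.28). The *Lnp* feature lay above the mouse pool at CS16, by 1.88, with limb differences of only 0.20 and 0.25. Its CS17 fold over the same pool had helped to match it, so this level is a description too. The stage difference of the *Lnp* feature over both limbs was -0.26 (standard error 0.14 from limma).

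*Hapln1* encodes the link protein that ties aggrecan to hyaluronan in cartilage. Its feature was higher at CS17 than at CS16 by 1.18 over both limbs (standard error 0.10 from limma). Its r with the *Hoxd11* feature was 0.45. *Matn1* encodes a cartilage matrix protein. Its limb difference was -0.33 ± 0.45 (SD, n = 4) at CS16 and 0.87 ± 0.45 (SD, n = 4) at CS17. The FL was the higher in 1 of 4 embryos at CS16 and in 4 of 4 at CS17. The CS16 FL ratios were -0.36, -1.20, -0.50 and -0.35, so replicate 2 weighed most on that mean. The stage difference of the *Matn1* feature over both limbs was 0.62 (standard error 0.13 from limma) and its r 0.48.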

How the data were processed

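Labels and methods give the design: 16 dual-colour arrays, 4 for each stage and limb. Background correction and normalisation were done by the authors in R, and their methods add quality and variance filters, imputed values and a correction for batch. The deposited log2 ratios hold 13988 of 37440 features (37.4%), with 0 partly missing. Which steps they include and their centring are not stated. Identical rows were counted once, leaving 12656. The sign was turned and the log2 base taken from listed folds. FL and HL ratios of an embryo were averaged and fitted by lmFit and eBayes (limma 3.58.1, R 4.3.3) with labelling batch as a term, 3 residual and 6.8 prior degrees of freedom and Benjamini-Hochberg adjustment over all features. The fit was tested on simulated data of independent values with no batch structure. That test does not bear on how the batch term suits these data. Tables and plots were made with pandas 2.3.3, numpy 2.4.6 and matplotlib 3.10.9 under Python 3.11.15.

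Replicate numbers mark labelling batches and, within a stage, embryos, as the labels and sample list state. Across features, deviations of FL and HL of an embryo correlated at -0.38 to 0.08, and those of different embryos of a batch at -0.55 to 0.02. The feature, genes, lists and alternatives were chosen with earlier results of these data known. Alternatives were other scalings, the fit with no batch term or on single arrays, fewer or more features, robust moderation and each replicate left out. Named features were the *Hoxd11* feature, the 5 most alike by each of 2 measures and matched probes for *Meis2*, *Lnp*, *Hapln1* and *Matn1*. Other gene lists and cell type markers needed probe names and were not analysed here, nor were probe sequences. The number of arrays limits the precision.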

Additional observations from a re-analysis of the deposited data

Results flagged for a closer look

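Of 52 groups of 4 values examined with Dixon's test, 2 held a value set apart, and chance sets apart about 1 in 20. None was a group of the *Hoxd11* feature. In feature 19273 the lowest CS16 HL ratio, 0.46, stood apart, and in feature 11794 the highest CS16 FL ratio, 0.038, did.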

How the results depend on the processing

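The limb differences and group levels of the *Hoxd11* feature moved by less than 1 SD under centring, quantile normalization and each replicate left out. Without single replicates the CS16 HL level lay between -0.35 and -0.16 and the CS17 HL level between -0.54 and -0.28. The stage difference over both limbs then lay between -0.026 and 0.10, turning negative without replicate 2. Its CS16 level over the mouse pool passed with no replicate block (0.13, adjusted p = 0.0144 from limma) and with arrays centred on their median (0.22). Without single replicates it lay between 0.12 and 0.18, passing without replicate 2 (0.18, adjusted p = 0.0495 from limma).

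The count of features that changed with stage, 11, was 779 with no replicate block, 50 with the 16 arrays fitted singly, 3 with arrays centred on their median, 96 among the 5200 most variable features, 6 with robust moderation, 22 with every row counted and 2 at an adjusted p under 0.01. After quantile normalization it was 11 again, but 9 higher and 2 lower in place of 5 and 6. Without replicate 1 it was 3, without replicate 2 it was 6, without replicate 3 it was 636 and without replicate 4 it was 0, where 887 features had an unadjusted p under 0.05 from limma. The cause was not tested. The count for CS16 over the pool, 10258, was 4337 among the most variable features, where fewer were tested, and 9628 to 10064 without single replicates. No scanner files were used, so signal over background was not measured.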

Other observations

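The feature whose ratios ran most opposite to those of the *Hoxd11* feature over the 16 arrays was 33979, with r = -0.83. Its FL minus HL had means of -0.10 at CS16 and -0.37 at CS17, and the FL was the higher in 1 of 8 embryos. It was chosen for this likeness, carries no gene name here and was not tested between limbs.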
